A study of Homo sapiens with 12 samples.

Results

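The comparison set SKBR3 cells given 100 nM lapatinib for 24 h against SKBR3 cells given vehicle (DMSO), and asked which messenger RNAs had changed within a day of drug. Its members were the 3 lapatinib and 3 DMSO libraries, taken by their treatment labels from the 12 libraries of the series, with every gene of the table. SKBR3 is an established human breast cancer line with an amplified ERBB2 (HER2) gene, and the labels give its genotype as WT. Both groups had been kept in DMSO from day -6. Cells were passaged on day -3, and each 6 cm plate received 350000 of them on day -1. On day 0 they received either more DMSO or 100 nM lapatinib, and RNA was taken on day 1. The other 6 libraries came from the same line and schedule with the EZH2 inhibitor GSK126 (5 µM from day -6), 3 with GSK126 alone and 3 with lapatinib added on day 0. They entered the choice of tested genes, the shared estimate of spread and the last comparison below.

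Lapatinib blocks the kinase sites of EGFR and HER2. HER2 has no known ligand of its own and signals as a dimer, with HER3 as its main partner, through PI3K and AKT on one side and RAS, RAF and ERK on the other. ERK output drives cyclin D1 and a set of feedback inhibitors, cyclin D with CDK4 and CDK6 inactivates RB and frees the E2F factors, and AKT keeps the FOXO transcription factors out of the nucleus. When HER2 is blocked, all of these branches can change their target genes, and the messenger RNAs below are ordered by them.

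Levels are normalized read counts, shown per library or as mean ± SD (n = 3). A change is the difference in mean log2(value + 1) between the groups, with its SE, and is positive where lapatinib was higher. This scale understates the change of genes with low counts. A gene is called higher or lower at an adjusted p under 0.05 (limma, Benjamini-Hochberg adjustment over 14179 tested genes), and the words rose and fell are kept for such genes. Whether separate cultures gave the 3 libraries of each group is not in the labels, and p-values here reflect no more than the spread among these libraries, which may be technical. In bulk RNA, fewer cells of a kind (such as fewer cells in cycle) and less RNA per cell cannot be told apart.

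The 6 libraries held 24192532 to 26773979 gene reads. Lapatinib libraries were closer to each other (r across genes 0.990 to 0.991, median SD of a gene 0.116 on the log2 scale) than DMSO libraries (0.974 to 0.983 and 0.243). Reads were seen in 16434 to 16491 genes with lapatinib and in 15059 to 16069 with DMSO. The nuclear RNA MALAT1 made up 2.18% to 2.67% of gene reads with lapatinib and 1.29% to 2.09% with DMSO. These are shares of reads, and on the deposited scaling its lapatinib and DMSO libraries overlapped. Spike-in transcripts took 0.860% to 1.42% of all reads with lapatinib and 0.588% to 0.745% with DMSO, without overlap (exact two-sided permutation p = 0.1, the smallest that 3 against 3 libraries allow). Scaled to the spike-ins, the median of all tested genes moved by -0.53, to -0.49, and 42 genes were called higher and 743 lower. By at least 2-fold these counts were 42 and 743 too, so both rises and falls lost calls. That fit shares its spread with the GSK126 libraries, whose spike-in shares were 1.33%, 0.384% and 0.650%. How far the shift and how far the spread removed calls was not tested. Total-count scaling moved the median by 0.16. The changes below are therefore on the deposited scaling, and where a list's median changes sign with spike-in scaling both medians are given. Where leaving out 1 library moved a list's count of calls by over 1.5 times, that count is given. Of the 189 genes named here 167 were called on the deposited scaling. With spike-in scaling 85 of them lost their call (58 rises and 27 falls), and the 167 kept their sign. Of the 22 others 10 changed sign. Whether RNA per cell, the amount of spike-in added or library quality moved these shares was not tested.

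The label was checked against marker genes. Of 13 genes typical of luminal, HER2-amplified cells, 12 passed the filter on low values (median 0.11, and -0.43 with spike-in scaling), with keratins KRT8, KRT18 and KRT19 at means of 185287, 116242 and 260455 in DMSO, and ESR1, the oestrogen receptor, at 4.98. Summed markers of other cell types were low beside the luminal list, whose sum was 802009 to 1018219 in DMSO libraries. The summed level of 12 fibroblast markers was 442 to 696 in DMSO and 475 to 633 in lapatinib libraries, that of 10 leukocyte markers 394 to 479 and 354 to 436, and that of 8 endothelial markers 1858 to 2176 and 1719 to 2019. The sum of 11 markers of basal mammary cells, EGFR among them, was 951 to 1320 in DMSO and 1009 to 1185 in lapatinib libraries. CLDN5, LYZ, FABP4 and the basal marker CDH3 had no read in any of the 6 libraries. Of these lists the adipocyte list of 6 genes had a higher sum with lapatinib (196 to 220 against 35.5 to 64.2), and nearly all of it was PLIN1, a coat protein of lipid droplets, which rose from 44.9 ± 9.94 to 208 ± 14.1 (a log2 change of 2.21 ± 0.28, adjusted p = 0.000102).

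After 24 h of lapatinib 1949 of 14179 tested genes were higher (13.7%) and 2024 lower (14.3%), 28.0% in all. By at least 2-fold 891 were higher (6.28%) and 961 lower (6.78%), and by at least 8-fold 33 were higher and 44 lower. The libraries of the 2 groups did not overlap for 7867 genes (55.5%). The whole 95% interval of the change lay within 1.5-fold either way for 2175 genes, or 15.3%, so that for most genes that were not called a change of that size was not excluded. Of the called genes 1818 higher and 1972 lower ones were also called by edgeR and DESeq2. Rises made up 49.1% of the calls, 61.0% with total-count scaling and 5.35% with spike-in scaling. A fit of the 6 libraries alone called 3019 higher (21.3%) and 3072 lower (21.7%), and more members of many lists. List counts below come from the fit of all 12 libraries unless another fit or tool is named, and are to be read against 13.7% and 14.3%. Some genes are in more than 1 list, so these counts are not independent. The FOXO list shares PIK3IP1 with the PI3K list, GABARAPL1 with autophagy and TP53INP1 with p53 targets, and ELF5 is in the luminal and milk lists. Without lapatinib library 1, 2 or 3 the higher genes numbered 1151, 1232 and 1232, and without lapatinib library 3 the lower genes numbered 1342.

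**Figure D1:**
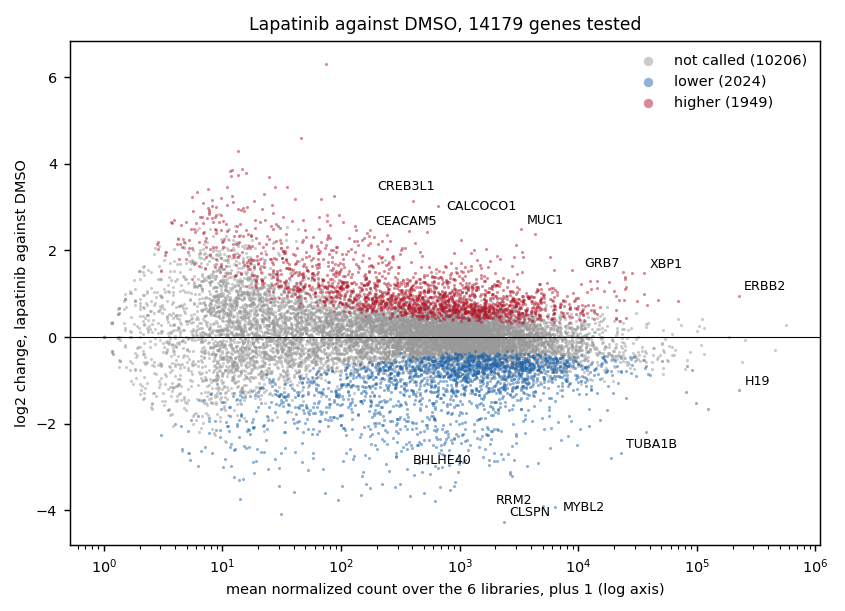
Change of each tested gene (log2, lapatinib against DMSO, y axis) against its mean normalized count over the 6 libraries (x axis, log scale); red points are the 1949 higher genes, blue the 2024 lower genes, grey the rest. CREB3L1 and CALCOCO1 are among the largest rises, and the deepest falls among abundant genes are those of CLSPN, MYBL2 and RRM2.

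Among the largest rises was that of CREB3L1, a membrane-bound transcription factor of the secretory pathway. Its level was 58.8, 109.7 and 82.2 in the DMSO libraries and 809, 652 and 709 in the lapatinib libraries. The lowest lapatinib library thus lay far above the highest DMSO library, and the change was 3.14 ± 0.23 (adjusted p = 1.15e-06). The largest rises and falls were picked among genes without overlap, so its absence adds no support for them. This holds also for CLSPN, GINS2, E2F7, SPC25 and SKA1 below. CALCOCO1, an autophagy receptor for the endoplasmic reticulum, went from 144 ± 29.2 to 1156 ± 35.1 (a log2 change of 3.02 ± 0.26, adjusted p = 3.81e-06). CYP4B1, a cytochrome P450, went from 142 ± 24.3 to 954 ± 102 (a log2 change of 2.74 ± 0.20, adjusted p = 1.17e-06). SCNN1G, the gamma subunit of the epithelial sodium channel, rose by 2.76 ± 0.31 and AGXT, an aminotransferase of peroxisomes, by 2.68 ± 0.40. COL28A1 and PSD changed by 4.60 and 3.47, but their DMSO libraries were uneven, with 0 in 1 or more of them and 33.1 in DMSO library 3 for COL28A1, which DESeq2 did not call (adjusted p = 0.0724).

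Some genes were close to silent on one side. Of 391 tested genes under 5 in every DMSO library, 78 were called higher, and of 395 under 5 in every lapatinib library, 42 were called lower. To be tested a gene had to reach 10 in 3 or more of the 12 libraries, so these genes passed only through libraries of other groups. The filter thus favoured calls in these directions, and the counts are a description only. With a ceiling of 2 these counts were 27 and 10, and with a ceiling of 10 they were 136 and 74. GJB1, which encodes the gap junction protein connexin 32, was at 0, 4.94 and 0 in the DMSO libraries and 25.5, 24.5 and 27.2 in the lapatinib libraries. RHBDL3, a rhomboid-like membrane protein, had 1 read over the DMSO libraries and 75 over the lapatinib libraries, a ratio of 68.5 (95% exact counting interval 11.9 to 2742). In the other direction ACOX2, a peroxisomal oxidase of bile acid precursors, went from 33.1 ± 17.2 to 3.31 ± 0.56. B4GALNT1, which makes complex gangliosides, went from 27.7 ± 2.60 to 3.96 ± 0.914 (a log2 change of -2.55 ± 0.31, adjusted p = 8.66e-05).

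By the difference in normalized count, ERBB2 itself gained most. The next gains included PSAP, the precursor of lysosomal saposins, XBP1, a factor of the unfolded protein response, the adaptor GRB7, SPINT1, an inhibitor of serine proteases at the cell surface, ATP2A3, a calcium pump of the endoplasmic reticulum, and the long noncoding RNA NEAT1. NEAT1 went from 12445 ± 1068 to 34955 ± 1407 (a log2 change of 1.49 ± 0.16, adjusted p = 2.33e-05). The largest loss was that of H19, an imprinted noncoding RNA, which was at 386648, 344828 and 234356 in the DMSO libraries and 145215, 139434 and 120831 in the lapatinib libraries. Its DMSO libraries differed among themselves, yet the lowest of them lay above the highest lapatinib library (a log2 change of -1.22 ± 0.21, adjusted p = 0.00107). DHRS2, a reductase of the mitochondria and nucleus, went from 187496 ± 33484 to 58916 ± 2991. The 10 largest losses among called genes also held HSP90AA1, a cytosolic chaperone (-1.51 ± 0.38), and the glycolytic enzymes ALDOA (-0.76 ± 0.21), ENO1 (-0.67 ± 0.18) and PKM (-0.88 ± 0.14). ALDOA was not called without a filter (adjusted p = 0.0633), DMSO library 1 or any 1 lapatinib library (0.0504 to 0.0733), nor ENO1 without a filter (0.0627), DMSO library 1 (0.0580) or lapatinib library 3 (0.0660). The others were ACTB (beta-actin) at -1.26 ± 0.16, TUBB at -2.19 ± 0.15, TUBA1B at -2.68 ± 0.14 and TOP2A, the topoisomerase of dividing cells, at -2.78 ± 0.25. ACTB, often used as a reference gene, fell from 114536 ± 9787 to 47765 ± 1220.1.

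Genes of the cell cycle held the deepest falls, in every phase. The G1 and S group had 9 of 13 tested genes lower and 1 higher (median log2 change -0.92, against 0.04 over all tested genes). CDC25A, the phosphatase that activates CDK2, went from 1607 ± 80.8 to 328 ± 23.3, CCNE1 (cyclin E1) from 1348 ± 76.9 to 526 ± 33.3, and CCND1 (cyclin D1) from 9403 ± 686 to 3397 ± 96.2. The kinases CDK2 (-1.55 ± 0.38), CDK4 (-0.69 ± 0.16) and CDK6 (-0.74 ± 0.17) fell as well, CDK4 and CDK6 losing their call with total-count scaling (adjusted p = 0.0643 and 0.0723). CCNG2, a cyclin linked to arrest, was at 389.8, 602 and 474 in the DMSO libraries and 1553, 1508 and 1657 in the lapatinib libraries. Each lapatinib library was above each DMSO library, and the change was 1.71 ± 0.30 (adjusted p = 0.00115).

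Of 19 E2F, RB and MuvB factors, 12 were lower and 1 higher (median -0.74). The activators E2F1 and E2F2 fell by 2.33 and 3.03 on the log2 scale. E2F7, a repressor that is itself an E2F target, was at 268, 369.5 and 323 in the DMSO libraries and 27.4, 34.1 and 22.5 in the lapatinib libraries. MYBL2, the MuvB partner of late S and G2, changed by -3.93 ± 0.17, and FOXM1, the forkhead factor of mitosis, by -2.71 ± 0.16. RBL2, which encodes p130, the pocket protein of resting cells, was at 431, 622 and 666 in the DMSO libraries and 1186, 1148 and 1369 in the lapatinib libraries, so this member moved against its list (a log2 change of 1.13 ± 0.26, adjusted p = 0.00666). RB1 (0.38, adjusted p = 0.43) and E2F4 (-0.08, adjusted p = 0.834) were not called. Of 8 CDK inhibitors none was called higher by limma, edgeR or DESeq2, and 0 were higher at an unadjusted p under 0.05. CDKN1B, which encodes p27, was at 1028 ± 167 to 1278 ± 59.3 (a log2 change of 0.33 ± 0.18, adjusted p = 0.206), while CDKN2D (-2.49 ± 0.28) and CDKN3, a phosphatase of CDKs (-2.34 ± 0.15), fell. The list had 4 lower members, 2 lower without DMSO library 1 or lapatinib library 2 or 3.

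All 43 of 43 tested genes of DNA replication were lower (median -1.89), and their sum took 0.444%, 0.483% and 0.472% of the gene reads of the DMSO libraries and 0.152%, 0.15% and 0.156% of those of the lapatinib libraries. CLSPN, the adaptor claspin of the replication checkpoint, was at 5477, 3218 and 4765 in the DMSO libraries and 224, 245 and 214 in the lapatinib libraries. The groups were far apart, and the change was -4.26 ± 0.35 (adjusted p = 2.63e-06). GINS2, a subunit of the replicative helicase, was at 1427, 853 and 1181 in the DMSO libraries and 112, 75.6 and 62.9 in the lapatinib libraries. CDC45, its partner in the same helicase, was at 1932, 1511 and 1471 in the DMSO libraries and 167, 150.1 and 131 in the lapatinib libraries. For neither gene did the libraries of the groups come near each other. MCM10 (-3.60 ± 0.19), ORC1 (-2.92 ± 0.18), CDC6 (-2.37 ± 0.13) and PCNA (-1.97 ± 0.12) mark origin licensing, firing and the sliding clamp. Nucleotide synthesis had 15 of 26 genes lower, and limma, edgeR and DESeq2 called 0 higher (0 at an unadjusted p under 0.05; median -0.62). TYMS, thymidylate synthase, went from 4739 ± 122 to 526 ± 20 and TK1, thymidine kinase, from 18870.4 ± 2241 to 5909.7 ± 333.

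Homologous recombination and Fanconi anaemia genes fell in 25 of 30 cases (median -1.54), among them the nuclease EXO1 (-3.38 ± 0.28). Chromatin assembly and maintenance had 17 of 18 lower (median -2.08). UHRF1, which guides DNMT1 to new DNA, went from 400.0 ± 119.6 to 39.8 ± 19.3, HJURP, the chaperone of centromeric histone, from 855 ± 99.7 to 100.4 ± 25.2, and LMNB1, lamin B1, from 1770.3 ± 456 to 366 ± 20.8. Among spindle checkpoint and kinetochore genes 32 of 35 were lower (median -2.17). SPC25, a kinetochore subunit that binds microtubules with the NDC80 complex, was at 629, 679.8 and 805 in the DMSO libraries and 47.0, 60.7 and 54.4 in the lapatinib libraries. SKA1, which tracks microtubule ends, was at 549, 489 and 515 in the DMSO libraries and 43.1, 50 and 45.0 in the lapatinib libraries. In neither did the groups overlap, with changes of -3.68 ± 0.22 and -3.46 ± 0.19. AURKB, the kinase of the chromosomal passenger complex, went from 1255 ± 146 to 114 ± 26.6. Condensin and cohesin genes split. 13 of 20 were lower (median -1.20), with CDCA5 (-3.21 ± 0.16), NCAPG (-2.99 ± 0.20) and SMC4 (-2.29 ± 0.29) deepest. The cohesin loader NIPBL (-0.05), the cohesin subunit STAG2 (0.08) and the cohesin regulator PDS5B (-0.31) were not called.

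The promoters of these genes are shown because the members fell together. E2F factors bind sites close to TTTCGCGC, TTTGGCGC or TTTCCCGC, and the MuvB complex binds TTTGAA, the cell cycle homology region (CHR) near the start of mitotic genes. Windows of 300 bases, from 250 before to 50 after the start site (RefSeq, GRCh38.p14), were matched by symbol for 10220 of the 14179 tested genes and searched on both strands. The capitals mark the match, which is a description of letters and not a measured binding site. GINS2 (chr16:85688905-85689204, minus strand) and CLSPN (chr1:35769929-35770228, minus strand) hold an E2F match starting 31 and 5 bases before the start site. SPC25 (chr2:168890381-168890680, minus strand) and SKA1 (chr18:50374796-50375095, plus strand) hold CHR matches, the first gene starting 247 and 3 bases before the start site and the second at base 35 counted from it.
GINS2: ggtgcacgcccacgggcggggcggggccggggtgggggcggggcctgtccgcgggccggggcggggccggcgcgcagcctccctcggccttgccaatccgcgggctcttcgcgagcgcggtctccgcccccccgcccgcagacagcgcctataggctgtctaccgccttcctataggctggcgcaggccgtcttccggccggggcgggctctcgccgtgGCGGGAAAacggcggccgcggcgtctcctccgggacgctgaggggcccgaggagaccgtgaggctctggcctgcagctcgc
CLSPN: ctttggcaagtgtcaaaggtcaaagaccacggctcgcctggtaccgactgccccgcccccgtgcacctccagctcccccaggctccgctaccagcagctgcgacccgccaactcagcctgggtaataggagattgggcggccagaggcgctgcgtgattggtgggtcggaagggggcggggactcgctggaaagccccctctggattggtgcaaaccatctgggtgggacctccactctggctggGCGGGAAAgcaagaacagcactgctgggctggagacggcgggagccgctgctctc
SPC25: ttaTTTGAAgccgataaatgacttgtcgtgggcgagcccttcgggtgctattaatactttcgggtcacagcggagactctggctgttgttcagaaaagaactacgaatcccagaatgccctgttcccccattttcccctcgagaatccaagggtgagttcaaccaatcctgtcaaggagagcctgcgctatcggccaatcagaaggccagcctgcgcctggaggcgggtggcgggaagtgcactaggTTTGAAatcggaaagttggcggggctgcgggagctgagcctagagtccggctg
SKA1: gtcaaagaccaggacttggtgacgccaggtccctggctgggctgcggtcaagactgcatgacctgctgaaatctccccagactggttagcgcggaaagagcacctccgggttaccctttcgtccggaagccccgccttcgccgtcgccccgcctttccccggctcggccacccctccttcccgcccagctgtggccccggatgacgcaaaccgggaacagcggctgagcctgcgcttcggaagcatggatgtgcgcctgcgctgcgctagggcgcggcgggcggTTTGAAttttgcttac

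An E2F match was in 19 of 36 promoters of DNA replication genes (52.8%), in 16.5% of genes lower by at least 4-fold and in 4.49% of tested genes. The CHR letters were in 13 of 26 promoters of spindle and kinetochore genes (50%), in 46.7% of condensin and cohesin genes, in 35.6% of genes lower by at least 4-fold and in 9.53% of tested genes. They were in 0 of 36 promoters of DNA replication genes. The plot of promoter matches shows this split between the DNA replication list and the spindle and kinetochore list, both of which were low after lapatinib. Other lists of the cell cycle were less clearly split. An E2F match was in 3 of 15 promoters of condensin and cohesin genes and in 3 of 22 of nucleotide synthesis genes. Among chromatin assembly genes E2F and CHR matches were each in 4 of 14 promoters. The letters CCAAT, also searched, were frequent in both split lists (61.1% and 57.7%, against 36.3% of tested genes). They were not particular to these lists, being in 73.3% of promoters of endoplasmic reticulum chaperones and 72.7% of those of sterol genes.

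**Figure D2:**
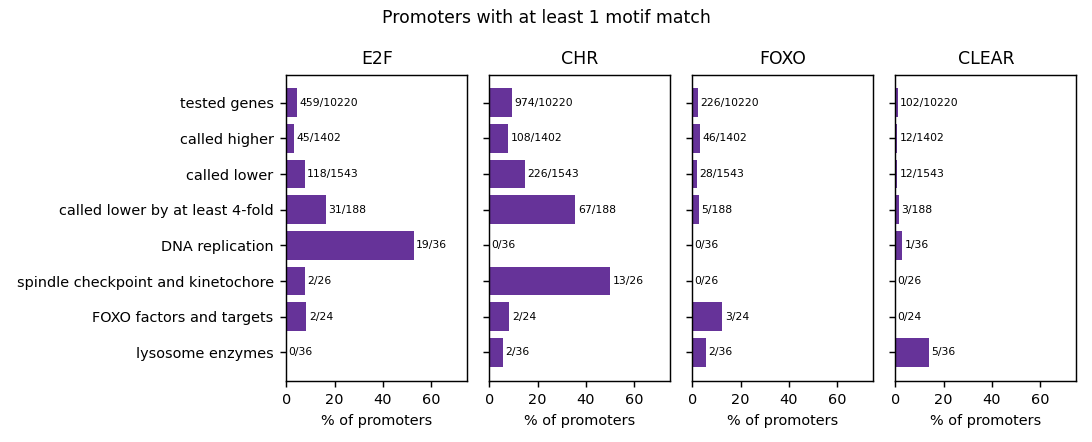
Share of promoters (x axis, % of those matched in RefSeq) with at least 1 E2F, CHR, FOXO or CLEAR match, for tested genes, called genes and 4 lists; numbers beside the bars are promoters with a match over promoters searched. E2F matches are most frequent in DNA replication (19/36) and CHR matches in spindle and kinetochore genes (13/26).

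At the receptor itself, ERBB2 was at 143494, 166912 and 152454 in the DMSO libraries and 296383, 290536 and 305779 in the lapatinib libraries, or 0.460%, 0.631% and 0.546% of gene reads in DMSO and 1.16%, 1.13% and 1.24% with lapatinib. The lowest lapatinib library was above the highest DMSO library (a log2 change of 0.95 ± 0.20, adjusted p = 0.00399). ERBB3, the kinase-poor partner of HER2, went from 5598 ± 593 to 9949 ± 15.1 (a log2 change of 0.83 ± 0.18, adjusted p = 0.00436). EGFR, the other lapatinib target, was at 645 ± 216 to 759.7 ± 37.7 (a log2 change of 0.29 ± 0.34, adjusted p = 0.549) and was not called. ERBB4 was low, at 19.6 ± 9.92 to 46.9 ± 9.27, and not called (adjusted p = 0.0574, 0.0311 in a fit of the 6 libraries alone, 0.0380 with DESeq2 and 0.0346 without DMSO library 2). The median of the 4 receptors was 0.89, and 0.35 with spike-in scaling.

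Of 15 tested genes that lie beside ERBB2 on the amplified segment 3 were higher and 1 lower, near the 13.7% and 14.3% of all tested genes, with a median of -0.01. The 1 lower gene lost its call without any 1 library other than DMSO library 3. GRB7, an adaptor that binds HER2, was at 16258, 14799 and 13539.5 in the DMSO libraries and 43827, 42369 and 38395 in the lapatinib libraries. It changed by 1.48 ± 0.16 (adjusted p = 3e-05), without overlap. PGAP3, which remodels lipid anchors, went from 5292 ± 717 to 8818 ± 536 and FBXL20, a ubiquitin ligase subunit, from 3471 ± 51 to 5139 ± 292. STARD3, a cholesterol carrier of late endosomes, was at 17265, 15579 and 14694 in the DMSO libraries and 15887, 15884 and 15291 in the lapatinib libraries, with overlapping groups and a change of -0.01 ± 0.14 (95% interval -0.317 to 0.294). CDK12, a kinase of transcription elongation, changed by 0.01 ± 0.20 (95% interval -0.428 to 0.445). A difference between GRB7 or ERBB2 and these neighbours was not tested.

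Among ligands of the family 6 of 11 passed the filter, with a median of 0.49 that was -0.02 with spike-in scaling. Of these 2 were higher (1 higher without DMSO library 2 or 3 or any 1 lapatinib library) and 2 lower (1 lower without DMSO library 3 or lapatinib library 1 or 3). EGF was at 233, 327 and 334 in the DMSO libraries and 845, 739 and 932 in the lapatinib libraries and rose without overlap (a log2 change of 1.5 ± 0.25, adjusted p = 0.000739). HBEGF, the heparin-binding ligand, went from 38.9 ± 13.4 to 14.6 ± 0.428 (a log2 change of -1.30 ± 0.30, adjusted p = 0.00658). Other receptor tyrosine kinases had 4 higher (14.8%) and 5 lower (18.5%) of 27, near the 13.7% and 14.3% of all tested genes. Counts were 1 lower without DMSO library 2 or any 1 lapatinib library and 2 lower without DMSO library 1. DDR1, a collagen receptor, went from 7825 ± 1763 to 15968 ± 922 (a log2 change of 1.05 ± 0.24, adjusted p = 0.00647) and INSR, the insulin receptor, from 286 ± 23.7 to 459.6 ± 21.8 (a log2 change of 0.69 ± 0.17, adjusted p = 0.0101), while the ephrin receptor EPHA2 went from 676 ± 208 to 236 ± 21.8 (a log2 change of -1.48 ± 0.25, adjusted p = 0.000903).

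In the PI3K branch 8 of 33 genes were higher and 2 lower, with a median of 0.23 that was -0.31 with spike-in scaling. Counts were 2 higher without lapatinib library 1, 3 higher without DMSO library 1 or lapatinib library 2 or 3 and 5 higher without DMSO library 2, and 1 lower without DMSO library 3 or lapatinib library 1 or 2. PIK3IP1, a membrane inhibitor of PI3K, was at 522, 555 and 504 in the DMSO libraries and 2214, 2201 and 1982 in the lapatinib libraries. It rose without overlap (a log2 change of 2.01 ± 0.16, adjusted p = 2e-06). GAB2, a docking protein that recruits PI3K, went from 42.0 ± 9.87 to 123 ± 5.65 (a log2 change of 1.56 ± 0.32, adjusted p = 0.00336). PIK3CD, a catalytic subunit, went from 127 ± 28.6 to 68.0 ± 3.01 (a log2 change of -0.87 ± 0.20, adjusted p = 0.00695).

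FOXO factors and their targets were mostly higher, with 19 of 29 higher (65.5%, against 13.7% of all tested genes) and a median of 1.03 (0.49 with spike-in scaling). By limma over the 12 libraries, edgeR or DESeq2 0 were lower (2 at an unadjusted p under 0.05). The limma fit of the 6 libraries alone called 20 higher and 1 lower. The inhibitor of thioredoxin TXNIP was at 1194, 1579 and 1460.0 in the DMSO libraries and 7508, 7021 and 7358 in the lapatinib libraries. Its libraries did not overlap (a log2 change of 2.38 ± 0.18, adjusted p = 1.46e-06). TP53INP1, which acts in autophagy and stress, went from 52.4 ± 10.1 to 207 ± 8.86, FBXO32, the ubiquitin ligase atrogin-1, from 1106 ± 24.6 to 4829 ± 126, GADD45A, a growth arrest protein, from 245 ± 16.7 to 501 ± 16.6 and CAT, catalase, from 1116 ± 87.1 to 2168 ± 200.3. FOXO1 (-0.43) and FOXO3 (0.50) themselves, outside the rule for named genes, were not called (adjusted p = 0.0954 and 0.25), though FOXO3 was in a fit of the 6 libraries alone (adjusted p = 0.0308). The letters GTAAACA, bound by FOXO factors, were in 3 of 24 promoters of the list (12.5%), 3.28% of the promoters of higher genes and 2.21% of those of tested genes. The TXNIP promoter (chr1:145996530-145996829, minus strand) is shown for its match, in capitals, starting 124 bases before the start site.
TXNIP: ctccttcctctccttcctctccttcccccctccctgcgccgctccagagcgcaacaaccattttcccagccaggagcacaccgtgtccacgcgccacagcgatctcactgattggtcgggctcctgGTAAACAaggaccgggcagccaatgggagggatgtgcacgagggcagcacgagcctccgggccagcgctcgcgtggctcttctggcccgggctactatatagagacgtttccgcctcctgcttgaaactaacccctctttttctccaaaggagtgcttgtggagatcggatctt

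ERK feedback and PEA3 genes had 6 of 21 lower, and limma, edgeR and DESeq2 called 0 higher (1 at an unadjusted p under 0.05, and 1 higher without DMSO library 2; median -0.65). SPRY4, a Sprouty inhibitor of receptor signalling, was at 125, 268 and 217 in the DMSO libraries and 34.3, 24.5 and 36.6 in the lapatinib libraries. DMSO library 1 was the lowest of its group and still above every lapatinib library (a log2 change of -2.59 ± 0.40, adjusted p = 0.000506). DUSP5, a nuclear ERK phosphatase, went from 351 ± 15.6 to 149 ± 18.0 (a log2 change of -1.23 ± 0.17, adjusted p = 0.000208). DUSP6, the cytoplasmic ERK phosphatase, was low, at 21.7 ± 5.63 to 14.2 ± 3.12, and not called (adjusted p = 0.268). Immediate early genes were mixed, with 8 lower and 3 higher of 23, and 5 lower without lapatinib library 3. EGR1 was at 168, 196 and 179 in the DMSO libraries and 67.6, 67.1 and 63.8 in the lapatinib libraries, without overlap (a log2 change of -1.44 ± 0.18, adjusted p = 0.000102). JUN went from 603 ± 40.8 to 243 ± 9.06 and KLF2 from 481 ± 36.2 to 163 ± 15.7, while KLF4, a factor of epithelial differentiation, went from 399 ± 37.1 to 1302 ± 162 (a log2 change of 1.70 ± 0.18, adjusted p = 3e-05).

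**Figure D3:**
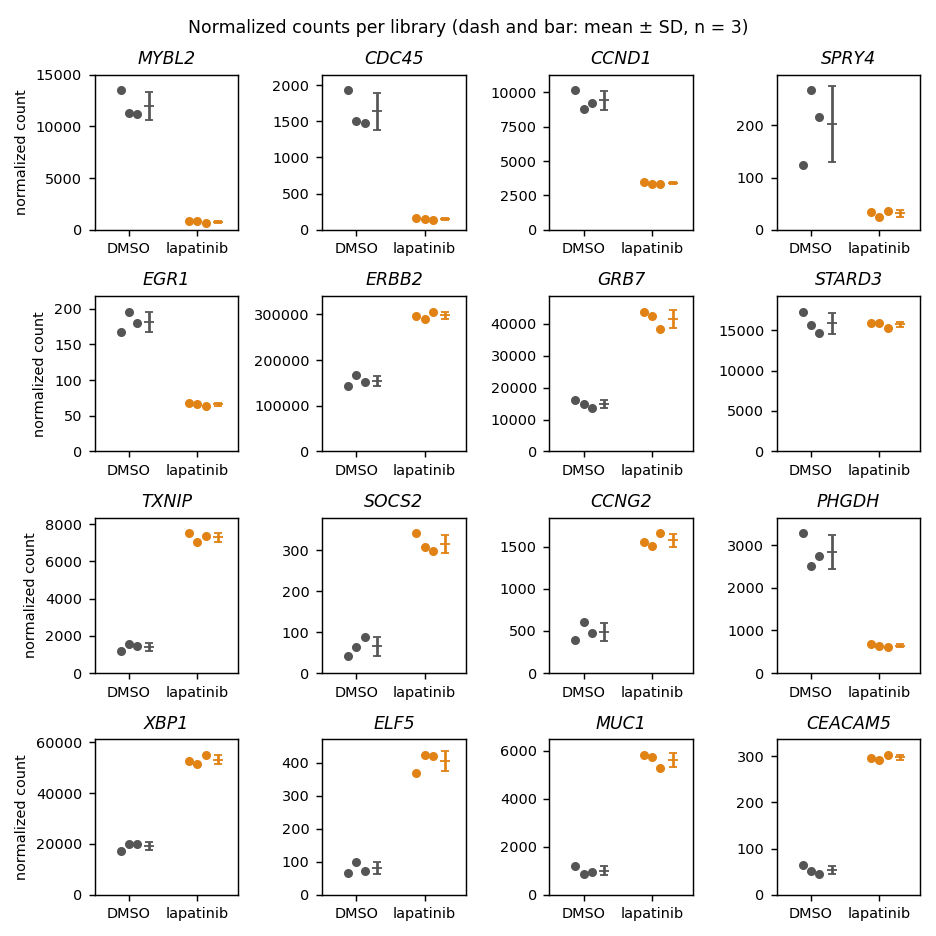
Normalized count (y axis, from 0) of 16 genes in each DMSO (grey) and lapatinib (orange) library, with the mean ± SD (n = 3) beside the points. In every panel but that of STARD3 the groups are apart; MYBL2, CDC45, CCND1, SPRY4, EGR1 and PHGDH are lower with lapatinib and the other 9 genes higher.

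MYC itself was not called (3312 ± 737 to 2894 ± 201, a log2 change of -0.17 ± 0.41, adjusted p = 0.782; 95% interval -1.05 to 0.708). Its network had 4 of 12 higher and 1 lower, with 2 higher without lapatinib library 3, and a median of 0.18 that was -0.36 with spike-in scaling. The antagonists MXD1 (from 176 ± 30.7 to 335 ± 16.2) and MXI1 (from 182 ± 27.2 to 340.4 ± 30.5) rose, and MXD3, the family member expressed in cycling cells, fell from 1360.0 ± 249 to 437 ± 38.7.

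The JAK and STAT list had 6 of 26 higher and 2 lower, with a median of 0.21 that was -0.33 with spike-in scaling. The list had 1 lower without DMSO library 1, and both lower genes lost their call without any other 1 library. SOCS2, a feedback inhibitor of cytokine and growth hormone receptors, was at 42.9, 64.2 and 88.6 in the DMSO libraries and 341, 308 and 297 in the lapatinib libraries. Its libraries did not overlap (a log2 change of 2.31 ± 0.25, adjusted p = 2.69e-05). CISH, of the same family, went from 1261 ± 90.9 to 2462 ± 70.2 (a log2 change of 0.97 ± 0.13, adjusted p = 0.00018) and STAT6, which acts downstream of interleukin 4, from 601 ± 14.3 to 1745 ± 69.1 (a log2 change of 1.54 ± 0.16, adjusted p = 2.85e-05). Both SOCS2 and CISH are known targets of STAT5, the factor of lactation.

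TGF-beta and BMP genes had 2 higher and 2 lower of 31 (6.45% each, against 13.7% and 14.3% of all tested genes), with 1 higher without DMSO library 3. Among them were ID3, an inhibitor of basic helix-loop-helix factors (-0.89 ± 0.19), BMPR1B (-1.30 ± 0.25) and INHBB, an activin subunit (0.73 ± 0.12). The median was 0.25, and -0.29 with spike-in scaling, and a fit of the 6 libraries alone called 9 higher and 4 lower. The Notch list had 4 higher (16.0%) and 6 lower (24.0%) of 25, against 13.7% and 14.3% of all tested genes. Counts were 1 higher without lapatinib library 1 or 3 and 2 higher without DMSO library 2 or 3 or lapatinib library 2. HES6 (-1.53 ± 0.27), HES4 (-1.33 ± 0.27) and NRARP (-1.30 ± 0.26), transcriptional regulators tied to Notch, fell. YAP and TEAD targets had 5 of 22 lower, with 2 lower without lapatinib library 2 or 3 and 3 lower without DMSO library 1 or 3 or lapatinib library 1 and a median of 0.02 that was -0.51 with spike-in scaling. They included CTGF, from 113 ± 17.3 to 50 ± 20.8 (a log2 change of -1.24 ± 0.29, adjusted p = 0.00765). Of the list 1 was higher (3 higher without DMSO library 2), namely AMOTL1, a scaffold that binds YAP, from 2868 ± 293 to 6675 ± 319.6 (a log2 change of 1.22 ± 0.14, adjusted p = 4.25e-05).

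The machinery that builds ribosomes and folds new protein fell in part. Ribosome biogenesis and RNA polymerase I genes had 27 of 47 lower, and limma, edgeR and DESeq2 called 0 higher (0 at an unadjusted p under 0.05; median -0.70). POLR3G, an RNA polymerase III subunit, went from 424 ± 80.7 to 109 ± 12.2, NPM3, a nucleolar histone chaperone, from 2711 ± 604 to 879 ± 34.4 and NOP16 from 3478 ± 604 to 1531 ± 97.9. Cytosolic tRNA synthetases had 7 of 20 lower (median -0.29), with 4 lower without lapatinib library 2 or 3 and 13 lower in a fit of the 6 libraries alone. Initiation and elongation factors had 11 of 37 lower (median -0.43), with 7 lower without DMSO library 1 or 3 or lapatinib library 1 or 3. In a fit of the 6 libraries alone 21 were lower and 4 higher. The cap-binding protein EIF4E went from 1421 ± 139.9 to 733 ± 13.6 (a log2 change of -0.95 ± 0.15, adjusted p = 0.00048). PDCD4, which blocks the initiation helicase, went the other way, at 657, 900.2 and 909 in the DMSO libraries and 2099, 2231 and 2220.3 in the lapatinib libraries. The groups did not overlap (a log2 change of 1.42 ± 0.14, adjusted p = 1.83e-05).

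Cytosolic and mitochondrial chaperones had 19 of 28 lower (median -0.61), and limma, edgeR and DESeq2 called 0 higher (0 at an unadjusted p under 0.05). Their sum took 1.73%, 1.68% and 1.85% of the gene reads of the DMSO libraries and 1.06%, 1.08% and 1.12% of those of the lapatinib libraries. HSP90AA1, the inducible HSP90 on which HER2 is known to depend for folding, was at 182150.0, 104959 and 157234 in the DMSO libraries and 47616, 53714 and 50539 in the lapatinib libraries (a log2 change of -1.51 ± 0.38, adjusted p = 0.0103). CCT5, of the chaperonin that folds actin and tubulin, went from 17951 ± 862 to 7839 ± 191 and HSPD1, the mitochondrial chaperonin HSP60, from 15862 ± 1621 to 7972 ± 381. The endoplasmic reticulum list had 5 higher (15.6%) and 2 lower (6.25%) of 32, against 13.7% and 14.3% of all tested genes. Its median was 0.17, and -0.37 with spike-in scaling. There was 1 lower without DMSO library 1 or lapatinib library 3, and a fit of the 6 libraries alone called 11 higher and 7 lower. XBP1 was at 17363, 20056 and 20122 in the DMSO libraries and 52589, 51598 and 55008 in the lapatinib libraries, without overlap (a log2 change of 1.47 ± 0.16, adjusted p = 2.9e-05). CREB3L4, a relative of CREB3L1, went from 3596 ± 496 to 7691 ± 383 (a log2 change of 1.10 ± 0.15, adjusted p = 0.000171) and HERPUD1, of the degradation pathway of that compartment, from 3408 ± 188 to 6081 ± 21.3, while DNAJB11, a co-chaperone of BiP, went from 6137 ± 535 to 3495 ± 43.7 (a log2 change of -0.81 ± 0.16, adjusted p = 0.00218).

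Of 35 genes of ATF4 and amino acid stress 7 were lower and 3 higher (median -0.18). The lower ones included serine synthesis. PHGDH, its first enzyme, was at 3279, 2515 and 2742 in the DMSO libraries and 677, 644 and 618 in the lapatinib libraries. The groups were far apart (a log2 change of -2.13 ± 0.15, adjusted p = 9.28e-07). PSAT1, the next enzyme, went from 1539.6 ± 171 to 628 ± 9.98 and SHMT2, which makes glycine and one-carbon units in mitochondria, from 7760.5 ± 565 to 4683 ± 274. CHAC1, which degrades glutathione, went from 64.9 ± 10.8 to 242 ± 11.1 (a log2 change of 1.89 ± 0.19, adjusted p = 1.79e-05) and SLC6A9, a glycine transporter, from 811 ± 170.0 to 1771 ± 146 (a log2 change of 1.14 ± 0.21, adjusted p = 0.00169).

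Of 29 sterol genes 15 were lower and 2 higher (median -0.53). ACAT2, which makes acetoacetyl-CoA in the cytosol, was at 2879, 2518 and 2941 in the DMSO libraries and 569, 612 and 572 in the lapatinib libraries, without overlap (a log2 change of -2.25 ± 0.16, adjusted p = 9.09e-07). FDPS, farnesyl diphosphate synthase, went from 8180.3 ± 1048 to 3061 ± 231 and INSIG1, an anchor of the sterol sensor, from 891 ± 74.7 to 299 ± 1.69. Fatty acid and triglyceride synthesis had 2 lower and 1 higher of 22, with 2 higher without DMSO library 2. ELOVL6, an elongase (a log2 change of -1.31 ± 0.23, adjusted p = 0.00122), and SCD, stearoyl-CoA desaturase (a log2 change of -0.81 ± 0.13, adjusted p = 0.00056), fell, and THRSP, a lipogenic factor, went from 270.4 ± 31.9 to 825 ± 12.2 (a log2 change of 1.61 ± 0.28, adjusted p = 0.00113).

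Fatty acid oxidation and ketogenesis had 8 of 25 higher and 1 lower, with a median of 0.45 that was -0.09 with spike-in scaling, with 5 higher without DMSO library 1 or lapatinib library 3. The lower gene lost its call without DMSO library 1 or any 1 lapatinib library. HADHB, of the mitochondrial trifunctional protein, went from 3764 ± 133 to 6599 ± 130.3 (a log2 change of 0.81 ± 0.15, adjusted p = 0.00174). Glycolysis genes had 12 of 26 lower (median -0.59). By limma over the 12 libraries or by edgeR 0 were higher (1 at an unadjusted p under 0.05, and 1 called by DESeq2). The limma fit of the 6 libraries alone called 16 lower and 3 higher. PKM, pyruvate kinase, went from 52502 ± 3079.6 to 28537 ± 1400.3, LDHB from 21873 ± 1542 to 12972 ± 313 and SLC16A1, a lactate transporter of low level, from 26.3 ± 3.83 to 5.24 ± 1.19. Nuclear genes of oxidative phosphorylation had 10 of 55 lower and 2 higher (median -0.43), but 30 lower and 3 higher in a fit of the 6 libraries alone. Counts were 5 lower without DMSO library 1 or lapatinib library 3 and 6 lower without DMSO library 3 or lapatinib library 1, and 1 higher without DMSO library 1 or 2 or any 1 lapatinib library. CYCS, cytochrome c, went from 15261 ± 1501 to 7397 ± 385 (a log2 change of -1.04 ± 0.13, adjusted p = 0.000102), while SDHA, of complex II, went from 10573 ± 604 to 16348 ± 605 (a log2 change of 0.63 ± 0.13, adjusted p = 0.00292). The NRF2 and glutathione list had 6 lower (17.1%) and 4 higher (11.4%) of 35, near the 14.3% and 13.7% of all tested genes, and 13 lower and 6 higher in a fit of the 6 libraries alone. Counts were 1 lower without DMSO library 1 or lapatinib library 3 and 2 lower without lapatinib library 1 or 2, and 1 higher without lapatinib library 2 and 2 higher without DMSO library 1 or 2 or lapatinib library 1 or 3.

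Lysosome genes had 18 of 56 higher and 4 lower, with a median of 0.28 that was -0.26 with spike-in scaling. Counts were 11 higher without lapatinib library 1, and 2 lower without DMSO library 1. Their sum took 1.08%, 1.14% and 1.08% of the gene reads of the DMSO libraries and 1.70%, 1.64% and 1.65% of those of the lapatinib libraries. GAA, the enzyme that degrades glycogen in lysosomes, was at 1285, 1287 and 971 in the DMSO libraries and 2783, 2846 and 2569 in the lapatinib libraries (a log2 change of 1.22 ± 0.15, adjusted p = 8.16e-05). CTSO, a cysteine cathepsin, went from 41.7 ± 18.5 to 223 ± 22.2 (a log2 change of 2.47 ± 0.26, adjusted p = 2.34e-05), GRN, progranulin, from 2410.1 ± 156 to 4881 ± 264 (a log2 change of 1.02 ± 0.15, adjusted p = 0.000279) and PPT1, which removes palmitate from proteins, from 28543 ± 890.1 to 47801 ± 1471 (a log2 change of 0.74 ± 0.13, adjusted p = 0.00102). GLA, alpha-galactosidase, went the other way, from 1449 ± 144 to 484 ± 19.9 (a log2 change of -1.58 ± 0.14, adjusted p = 7e-06). Autophagy genes had 15 of 37 higher and 1 lower, with a median of 0.32 that was -0.22 with spike-in scaling. There were 10 higher without lapatinib library 2 or 3, and the lower gene lost its call without any 1 of the 6 libraries. NBR1, a cargo receptor, went from 950.0 ± 57.9 to 2437 ± 109, GABARAPL1, of the ATG8 family, from 372 ± 23.2 to 839 ± 48.1 and ULK1, the kinase that starts autophagy, from 1041 ± 161 to 1778 ± 115.

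TFEB and its relatives bind the CLEAR element, searched as CACGTG or CATGTG with GT before and AC after it, so that the first form also holds an E-box, CACGTG. It was in 5 of 36 promoters of lysosome genes (13.9%) and in 0.998% of those of tested genes, but in 0.856% of higher genes. GAA (chr17:80101331-80101630, plus strand) holds 2 matches, starting 78 and 33 bases before the start site, and PPT1 (chr1:40097203-40097502, minus strand) holds 1, starting 5 bases before it. Both genes rose, and their windows are printed with the match in capitals.
GAA: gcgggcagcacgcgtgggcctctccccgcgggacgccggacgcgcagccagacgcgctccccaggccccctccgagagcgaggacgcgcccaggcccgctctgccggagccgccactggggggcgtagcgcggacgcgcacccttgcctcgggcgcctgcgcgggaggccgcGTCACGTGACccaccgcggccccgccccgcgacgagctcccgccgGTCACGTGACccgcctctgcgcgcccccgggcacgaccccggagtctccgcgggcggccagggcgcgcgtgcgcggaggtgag
PPT1: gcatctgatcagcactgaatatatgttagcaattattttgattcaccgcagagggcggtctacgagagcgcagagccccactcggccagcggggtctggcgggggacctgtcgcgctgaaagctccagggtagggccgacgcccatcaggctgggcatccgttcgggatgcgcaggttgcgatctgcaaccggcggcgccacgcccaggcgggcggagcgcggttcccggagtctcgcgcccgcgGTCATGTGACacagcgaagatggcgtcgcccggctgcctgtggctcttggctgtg

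Genes of luminal and secretory identity rose in part. Of 33 luminal transcription factors and nuclear receptors 11 were higher and 1 lower, with a median of 0.52 that was -0.02 with spike-in scaling, with 7 higher without lapatinib library 2 or 3. ELF5, the ETS factor of alveolar cells, was at 66.2, 101 and 72.6 in the DMSO libraries and 370.2, 424 and 420.4 in the lapatinib libraries. The groups did not overlap (a log2 change of 2.35 ± 0.22, adjusted p = 1.08e-05). EHF, from 378 ± 60.1 to 1158 ± 42.1, and ELF3, from 12918 ± 1095 to 27123 ± 1682, are epithelial ETS factors that rose too. VDR, the vitamin D receptor, went from 2683 ± 168 to 1221 ± 105 (a log2 change of -1.14 ± 0.17, adjusted p = 0.000318). FOXA1, a pioneer factor of luminal cells (0.52 ± 0.21), was not called (adjusted p = 0.0764), except in a fit of the 6 libraries alone (adjusted p = 0.0321).

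Milk and mammary secretory genes had 12 of 20 higher and 1 lower (median 1.00, and 0.46 with spike-in scaling). MUC1, a membrane mucin, was at 1217, 861 and 945 in the DMSO libraries and 5829, 5734 and 5283 in the lapatinib libraries, with no overlap (a log2 change of 2.49 ± 0.27, adjusted p = 2.78e-05). PIP, prolactin-induced protein, went from 26.8 ± 2.06 to 177 ± 31.6 (a log2 change of 2.66 ± 0.22, adjusted p = 2.75e-06), MUC15, a mucin of the milk fat globule, from 24.3 ± 10.4 to 165 ± 19.7 (a log2 change of 2.81 ± 0.36, adjusted p = 0.000102) and SCGB2A2, mammaglobin, from 257 ± 17.6 to 555 ± 15.3 (a log2 change of 1.11 ± 0.14, adjusted p = 0.000125). Keratins had 3 of 18 lower (16.7%) and 1 higher (5.56%), against 14.3% and 13.7% of all tested genes. KRT17, from 184 ± 50.9 to 55.7 ± 3.60, and KRT13, from 230.2 ± 28.4 to 88.2 ± 7.68, fell, KRT23 went from 30.6 ± 7.65 to 80.1 ± 13.2, and the abundant luminal keratin KRT8 changed by 0.01 ± 0.19 (95% interval -0.403 to 0.415).

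Junction genes had 9 of 29 higher and 2 lower, with a median of 0.30 that was -0.24 with spike-in scaling, with 5 higher without DMSO library 3 or any 1 lapatinib library. CEACAM5, the carcinoembryonic antigen, was at 63.7, 52.4 and 44.8 in the DMSO libraries and 297, 292 and 302 in the lapatinib libraries, without overlap (a log2 change of 2.46 ± 0.19, adjusted p = 2e-06). CEACAM6 went from 777 ± 63.7 to 1951 ± 114 and CLDN3, a claudin of tight junctions, from 2628 ± 424 to 4962 ± 336, while EPCAM, an epithelial adhesion molecule, went from 8081 ± 707 to 4792 ± 252 (a log2 change of -0.75 ± 0.16, adjusted p = 0.00399). Collagen, laminin and integrin genes had 6 higher (18.8%) and 3 lower (9.38%) of 32, against 13.7% and 14.3% of all tested genes. Their median was 0.10, and -0.42 with spike-in scaling. Counts were 3 higher without any 1 lapatinib library, and 1 lower without lapatinib library 2. COL7A1, the anchoring fibril collagen, went from 36.6 ± 18.8 to 143 ± 34.2 (a log2 change of 2.08 ± 0.44, adjusted p = 0.00404).

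Interferon and MHC class I genes were at the background in both directions, with 6 higher and 6 lower of 42 (14.3% each). IFI6 went from 222 ± 72.9 to 489 ± 17.4 (a log2 change of 1.19 ± 0.25, adjusted p = 0.00377) and TAP1, the peptide transporter, from 595 ± 8.38 to 355 ± 20.4 (a log2 change of -0.74 ± 0.14, adjusted p = 0.00209). The NF-kB list had 7 lower and 4 higher of 26 (median -0.43). Counts were 2 lower without lapatinib library 1, 3 lower without DMSO library 1 or lapatinib library 2 and 4 lower without lapatinib library 3, and 2 higher without DMSO library 3 or lapatinib library 1. ICAM1, an adhesion molecule for leukocytes, went from 60.6 ± 8.63 to 16.0 ± 4.79 (a log2 change of -1.89 ± 0.26, adjusted p = 0.000185).

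In the BCL2 family 7 of 19 genes were higher and 2 lower, with a median of 0.17 that was -0.18 with spike-in scaling. The BH3-only killers moved apart. BMF was at 319.9, 515 and 349 in the DMSO libraries and 1054, 978 and 978 in the lapatinib libraries (a log2 change of 1.37 ± 0.22, adjusted p = 0.000579). BCL2L11, which encodes BIM, went from 743 ± 114 to 1412 ± 29.6 (a log2 change of 0.94 ± 0.21, adjusted p = 0.00493) and BBC3, which encodes PUMA, from 226 ± 65.7 to 408 ± 19.1 (a log2 change of 0.89 ± 0.20, adjusted p = 0.00646), while BID went from 1080.1 ± 145 to 466 ± 34.2 (a log2 change of -1.20 ± 0.16, adjusted p = 0.000156). The p53 list had 6 higher (19.4%) and 3 lower (9.68%) of 31, near the 13.7% and 14.3% of all tested genes. Its median was 0.05, and -0.49 with spike-in scaling. PLK3 (-1.49 ± 0.23) and AEN (-0.91 ± 0.12) fell and XPC (0.60 ± 0.11) rose.

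One clock gene stood out in size. BHLHE40, a repressor of clock and differentiation genes also known as DEC1, was at 506, 779 and 645 in the DMSO libraries and 86.2, 52.2 and 94.8 in the lapatinib libraries. It fell without overlap (a log2 change of -3.06 ± 0.26, adjusted p = 3.31e-06). The list had 1 lower (4.35%, and 2 lower without DMSO library 3) and 4 higher (17.4%) of 23, against 14.3% and 13.7% of all tested genes. Its median was 0.20, and -0.34 with spike-in scaling. CRY2, a repressor of the clock, went from 306 ± 25.2 to 596 ± 25.1 (a log2 change of 0.96 ± 0.15, adjusted p = 0.000405). Polycomb genes had 6 lower and 3 higher of 30, and the 3 higher ones lost their call without any 1 lapatinib library. There were 1 higher without DMSO library 1 or 3 and 5 without DMSO library 2. EZH2, the methyltransferase, went from 1549.5 ± 14.7 to 465 ± 28.1 (a log2 change of -1.74 ± 0.13, adjusted p = 1.84e-06), RBBP7 from 4175 ± 613 to 2249 ± 40.0 and CBX2, a reader of its mark, from 9332 ± 1447 to 5580.0 ± 312. The methylation of histone H3 itself was not measured here.

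**Figure D4:**
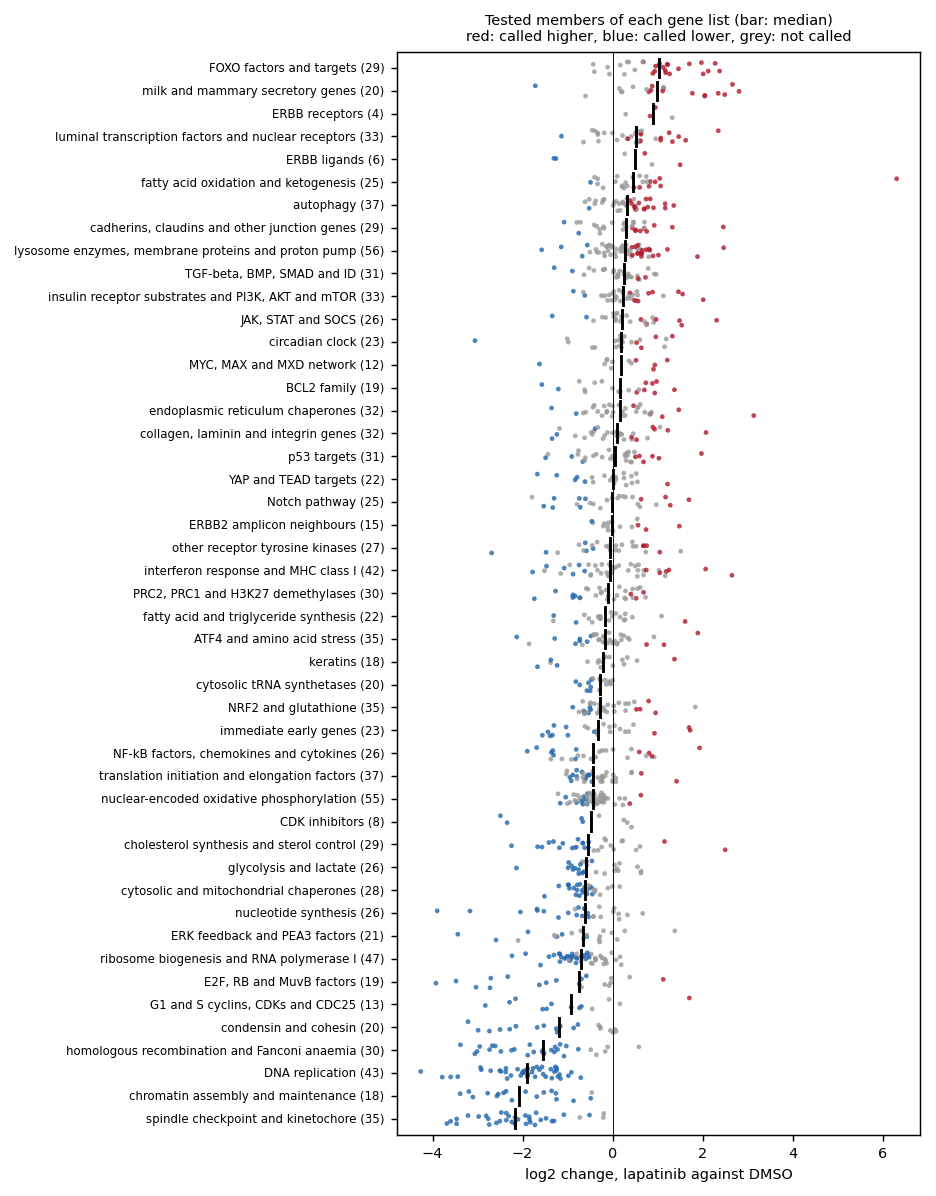
Log2 change (x axis, lapatinib against DMSO) of every tested member of 47 gene lists, sorted by median (black bar), with the number tested in brackets; red points are higher, blue lower, grey not called. Cell cycle lists lie lowest, with all 43 DNA replication genes blue, and FOXO and milk lists highest; with spike-in scaling the medians of the lists between the luminal transcription factor list and the YAP and TEAD list move below 0.

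The same drug was also given to cells held in GSK126, in 6 libraries that the comparison above used only for the shared spread and the filter on low values. There 2579 genes (18.2%) were called for lapatinib. Of the 3973 genes called in DMSO-kept cells 3836 had the same sign in GSK126-kept cells, and 857 of the 1949 higher genes (44%) and 1138 of the 2024 lower genes (56.2%) were also called there in the same direction. These are 71.3% of the 1202 genes higher and 82.6% of the 1377 genes lower in GSK126-kept cells. The median change of the higher genes was 0.95 in DMSO-kept cells, which chose them, and 0.61 in GSK126-kept cells. That of the lower genes was -0.96 and -0.71. CLSPN changed by -3.75 ± 0.35 in GSK126-kept cells, ERBB2 by 0.54 ± 0.20, TXNIP by 1.19 ± 0.18 and MUC1 by 1.17 ± 0.27.

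A test of the difference between both lapatinib effects (the interaction) called 3 genes (0.0212%), 2 with a difference above 0 (0.0141%) and 1 below 0 (0.00705%), 836 being under an unadjusted p of 0.05. edgeR called 3 (831 unadjusted) and DESeq2 115 (992 unadjusted). Among genes called for lapatinib in DMSO-kept cells it called 1. DAPK2, a calmodulin-dependent kinase tied to cell death, was at 74.8, 51.4 and 59.8 in the DMSO libraries and 25.5, 24.5 and 20.6 in the lapatinib libraries. It fell in DMSO-kept cells (-1.35 ± 0.23) and changed by 0.99 ± 0.23 in GSK126-kept cells, an interaction of 2.34 ± 0.33 (adjusted p = 0.0466). Without any 1 library other than GSK126 library 1 that interaction was not called (adjusted p = 0.0612 to 0.254). The GSK126 libraries were more spread (median SD 0.432 on the log2 scale), and the interaction called 18 genes without GSK126 library 1 and 1 without any 1 DMSO or lapatinib library.

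**Figure D5:**
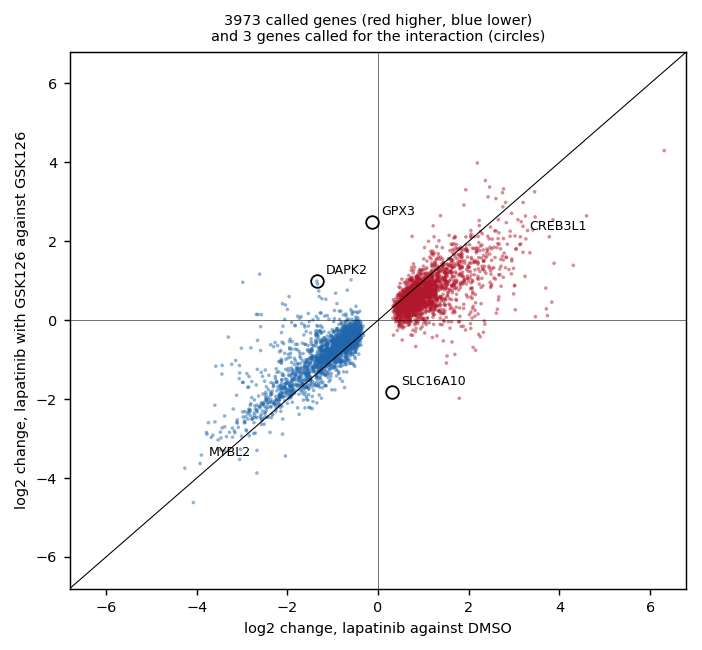
Log2 change with lapatinib in GSK126-kept cells (y axis) against that in DMSO-kept cells (x axis) for the 3973 called genes (red higher, blue lower), with the line of equal change; circles are the 3 genes called for the interaction. Most points share their sign (3836 of 3973), and medians are smaller in GSK126-kept cells.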

How the data were processed

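Messenger RNA libraries (Kapa mRNA HyperPrep) were made from RNA extracted with an RNeasy Plus kit and read on a NextSeq500 as 75 bp single-end reads, per the labels. Reads were aligned with STAR to hg19 and normalized with DESeq2, per the submitters' processing notes; versions, the counter, the annotation and the strand setting are not given in the sources used here, so overlapping and near-identical genes may share reads. The deposited signal of each gene and library is a read count that the authors divided by a size factor. Every value was a whole multiple of its column's smallest value (100% within 0.01), so the reads could be recovered for edgeR 4.0.16 and DESeq2 1.42.0. The table held 22170 genes and 86 spike-ins, and 27 symbols turned into dates are not named. No column of values was left without a sample.

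The main test, of log2(value + 1), was limma 3.58.1 under R 4.3.3, with a mean per group, all 12 libraries (8 residual degrees of freedom), a trended prior and Benjamini-Hochberg adjustment over 14179 genes that reached 10 in 3 or more libraries, called under 0.05. Reads recovered from the deposited counts gave 1852 higher and 2025 lower genes with edgeR's quasi-likelihood test. Alternatives were other pseudocounts, filters, scalings, prior, tools, a replicate block, the 6 libraries alone and leaving out each library. The counting intervals cover counting error only, since reads without molecular identifiers are not independent molecules.

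The members and lists were chosen with earlier results of these data known, so list counts stand beside all tested genes without a test. Named genes were the 15 largest rises and falls (mean of at least 50, no overlap), the 10 largest gains and losses in count, 5 genes from silence and 5 to silence, up to 5 members of each list by adjusted p, every member of lists of up to 20 genes, 16 fixed genes and called genes with a called interaction; the text gives a part. Promoters came from RefSeq (GRCh38.p14) by symbol, and no coordinates are printed for the hg19 data. The procedure was tested on simulated data. Some results are not reported here.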

Additional observations from a re-analysis of the deposited data

Results flagged for a closer look

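The lapatinib effect differed between GSK126-kept and DMSO-kept cells for 3 genes, by the interaction term of limma with Benjamini-Hochberg adjustment over 14179 genes. For DAPK2 the effect was -1.35 ± 0.23 in DMSO-kept and 0.99 ± 0.23 in GSK126-kept cells, a difference of 2.34 (adjusted p = 0.0466). For GPX3, a secreted glutathione peroxidase, it was -0.13 ± 0.17 and 2.48 ± 0.17, a difference of 2.61 (adjusted p = 0.00138). Its mean was 545 ± 93.8 with DMSO, 495 ± 43.0 with lapatinib, 1222 ± 242 with GSK126 and 6744 ± 626 with both drugs (n = 3 each). For SLC16A10, an aromatic amino acid transporter, it was 0.30 ± 0.21 and -1.83 ± 0.21, a difference of -2.13 (adjusted p = 0.0466), with means of 207 ± 13.9, 257 ± 27.4, 92.4 ± 12.7 and 25.5 ± 5.45 in the same order. SLC16A10 lost its call without any 1 library other than GSK126 library 1 or the first library with both drugs (adjusted p up to 0.254), while GPX3 kept it without any 1 library. GPX3 and SLC16A10 were named after their values were seen.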

How the results depend on the processing

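The counts of higher and lower genes stayed within 1.5 times of 1949 and 2024 with pseudocounts of 0.5 and 5, no filter or a filter of 50, TMM, upper quartile or total-count scaling, a constant prior variance, edgeR (1852 and 2025), DESeq2 (2249 and 2388) and a filter over the 6 libraries. They moved further with spike-in scaling, to 42 higher (42 by at least 2-fold) and 743 lower, and in a fit of the 2 groups only, to 3019 and 3072, where the spread of the GSK126 libraries no longer enters. Leaving out 1 library at a time gave 1151 to 1659 higher and 1342 to 1821 lower genes, and 660 to 915 higher and 817 to 1020 lower by at least 2-fold. Each of these fits has 1 library fewer.

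The interaction called 3 genes, 1 without a filter and with TMM or total-count scaling, 8 with a constant prior variance, 115 with DESeq2 and 1 to 18 as 1 library was left out. With spike-in scaling limma called 0, with 167 genes under an unadjusted p of 0.05. Same-numbered DMSO and lapatinib libraries showed no strong shared deviation (r of their deviations 0.01, -0.11 and 0.07). Whether the numbers pair the samples cannot be told from this. With the replicate number as a block 1813 genes were higher, 1918 lower and 1 called for the interaction. The cause of these moves was not tested.

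Of the genes named in the text, 189 of 189 kept their direction and their side of the threshold with edgeR. With DESeq2 187 did, 1 losing and 1 gaining a call. Many were named for a large change or small adjusted p in these same reads, which favours such agreement. With spike-in scaling 85 of the 167 called ones lost their call. In simulated data with the real depths (13114 genes) recovery was 26.9% at a 1.5-fold change, 74.6% at 2-fold and 93.9% at 4-fold, with 7 wrong among 137 calls. There 67, 67 and 66 genes were changed by these folds, far fewer than the 3973 called in the data. All 12 simulated libraries had the spread of the DMSO libraries. In that setting a change under 2-fold was often missed. These rates may not hold for the real libraries, where recovery was not tested.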
